A study of Homo sapiens with 9 samples.

Results

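The 47 genes described here are molecular chaperones, their cochaperones and the folding enzymes of the endoplasmic reticulum (ER), read in HCT116 human colon carcinoma cells with and without a catalytic mutation of the ubiquitin ligase HUWE1. They were taken by gene symbol from a table of read counts for 11350 genes, in which all 47 were present. The set holds 21 cytosolic chaperones and cochaperones, the 8 subunits of the TRiC ring, and 18 ER folding genes.

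Cytosolic chaperones of the HSP70 family bind unfolded stretches of proteins in a cycle driven by ATP. J-domain proteins (HSP40) deliver clients and start the cycle, and nucleotide exchange factors such as HSP110 and BAG proteins release them. HSP90 acts later, on proteins that are nearly folded, together with cochaperones such as HOP and p23. Many of these genes are induced by the transcription factor HSF1, which binds heat shock elements, arrays of the unit nGAAn in alternating orientation. TRiC is a double ring of 8 different subunits that folds actin, tubulin and other proteins inside its cavity. The ER keeps its own HSP70 (HSPA5, BiP) and HSP90 (HSP90B1, GRP94), which are induced with disulfide isomerases by the unfolded protein response through XBP1 and ATF6.

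HUWE1 is a large ligase of the HECT type, which passes ubiquitin to its substrates through a catalytic cysteine. Untreated cells of 3 lines were sequenced, with 3 libraries each: unedited parental cells (HUWE1-P), a knock-in that keeps the catalytic cysteine of the endogenous gene (HUWE1-WT), and a knock-in that turns it into serine (HUWE1-CS). Both edited lines received 2 guide RNAs and a repair template that also carries a blasticidin resistance gene, and were grown from single cells after selection with puromycin and blasticidin. Whether the 3 libraries of an edited line come from 1 clone is not stated, so that the mutation and the history of a clone cannot be told apart. P-values measure the spread between these libraries, where the spread of each gene is estimated largely from that of all genes.

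The libraries held from 1610984 to 2060349 counts, which makes 3 counts equal to 1.46 to 1.86 CPM, the count relative to the size of the library. The smallest count of any of the 47 genes in any library was 15. Values below are CPM normalised by the TMM method. A gene was called where the p-value of edgeR's quasi-likelihood test, adjusted by Benjamini and Hochberg's method over all 11350 genes (FDR), did not exceed 0.01, and rose or fell is written of called genes alone. HUWE1 itself was at 543 ± 19.8 CPM in HUWE1-P, 469 ± 25.8 CPM in HUWE1-WT and 336 ± 11.7 CPM in HUWE1-CS cells (SD, n = 3). Against HUWE1-P its transcript fell in HUWE1-CS cells, with a log2 fold change of -0.69 (adjusted p = 1.06e-15 by edgeR). In HUWE1-WT cells it was at -0.21 (adjusted p = 0.354), short of the threshold. Of 8 colon epithelial markers 6 were in the table, among them EPCAM, KRT8 and CDH1, while CDX1 and CEACAM5 were not listed. Their summed level was between 4115 and 4240 CPM in HUWE1-P, between 4137 and 4533 CPM in HUWE1-WT and between 3670 and 4044 CPM in HUWE1-CS libraries. Within this list EPCAM and CDH1 rose and KRT8 and KRT18 fell in both comparisons, and the median log2 fold change of the 6 was 0.22 against HUWE1-P and 0.13 against HUWE1-WT. Of 13 markers of blood, stromal and endothelial cells only the collagen gene COL1A1 was listed, at between 19.2 and 24.7 CPM, between 18 and 25.6 CPM and between 8.71 and 14.8 CPM in the same order. The part of these shifts in the results below was not tested. In bulk RNA, fewer cells that express a gene and less RNA of it per cell cannot be told apart.

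The promoters of both stress responses carry short recognisable elements, and 4 of them are shown because they carry the 2 kinds of element by which the groups are compared further on. The 3 genes shown with heat shock elements all fell against both controls. Of the 12 cytosolic genes with a 2-unit element 6 did so, and the 4 shown do not stand for the rest. Windows from 250 bases before to 50 bases after annotated starts came from RefSeq (GRCh38.p14) and were placed on GRCh37, the build of the reads, by exact match. Each stretch below ends before the start and before the first exon base that GENCODE gives the gene there, and is written 5′ to 3′ on the strand of its gene. Capitals mark heat shock elements of 2 units, GAANNTTC or TTCNNGAA, in the first 3 stretches, and the ER stress element, CCAAT and CCACG with a spacer of 9 bases on either strand, in the last.
HSPA1A, chr6:31783184-31783319, plus strand: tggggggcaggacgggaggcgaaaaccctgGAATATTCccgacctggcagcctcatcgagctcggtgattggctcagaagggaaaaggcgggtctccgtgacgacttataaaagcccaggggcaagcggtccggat
DNAJB1, chr19:14629220-14629316, minus strand: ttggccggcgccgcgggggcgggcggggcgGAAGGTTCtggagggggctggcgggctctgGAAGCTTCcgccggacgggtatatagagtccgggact
CHORDC1, chr11:89956246-89956452, minus strand: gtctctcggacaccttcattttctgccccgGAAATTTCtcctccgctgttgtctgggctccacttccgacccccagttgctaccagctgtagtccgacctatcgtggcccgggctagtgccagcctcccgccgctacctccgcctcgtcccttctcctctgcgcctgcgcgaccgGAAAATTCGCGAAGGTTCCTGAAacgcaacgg
HSPA5, chr9:128003662-128003718, minus strand: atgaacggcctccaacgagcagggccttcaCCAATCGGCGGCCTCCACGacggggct
The element of HSPA1A begins 106 bases before the start. The DNAJB1 stretch holds 2 elements. That of CHORDC1 holds 5 matches in 2 blocks, of which the block of 5 units is the longer. The whole CHORDC1 window holds 6 matches, and its stretch stops 28 bases before the start. The HSPA5 stretch holds 1 exact match to the ER stress element. In GENCODE the stretches of HSPA1A, CHORDC1 and HSPA5 lie directly upstream of their genes, and that of DNAJB1 lies in an intron of its longer transcripts.

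Among cytosolic chaperones and cochaperones, 11 of the 21 genes fell from HUWE1-P to HUWE1-CS cells and 0 rose, with a median log2 fold change of -0.19, where 8.58% of all 11350 genes fell and their median was -0.0072. Against HUWE1-WT cells 11 fell and 0 rose, with a median of -0.23, beside 8.08% of all genes and a median of -0.00059. The 10 that fell against both controls were HSPH1, DNAJB4, BAG3, CHORDC1, DNAJB1, HSPA1A, HSPA1B, PTGES3, CACYBP and STIP1. Over all genes 6.22% fell against both, and both comparisons use the same HUWE1-CS libraries. In 13 of the 21 genes the 3 HUWE1-CS libraries lay below all 6 control libraries, as they did in 13.4% of all genes. Small changes are found more easily in genes of many counts. Against HUWE1-P the SE was 0.0484 in HSP90AA1, of many counts, and 0.267 in the ER gene DNAJB9, of few. The shares of all genes were not matched for level. The genes of this group were chosen with earlier results of these data known. An excess over the shares of all genes is therefore a description of the chosen genes and no test of enrichment. The same holds for the other groups and gene lists set beside all genes below.

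HSPH1 had the widest drop of the 47 genes in either comparison with a control. It encodes an HSP110 protein, a nucleotide exchange factor of HSP70 (chromosome 13, 31709110 to 31736525, minus strand, GRCh37). Its level was 399, 339.6 and 365 CPM in the HUWE1-P libraries, 356, 333 and 355 CPM in the HUWE1-WT libraries and 172, 174 and 207 CPM in the HUWE1-CS libraries. All HUWE1-CS libraries were far under all controls, and the controls of both lines overlapped. The log2 fold change was -0.997 (SE 0.0741, adjusted p = 3.23e-21) against HUWE1-P and -0.92 (SE 0.0748, adjusted p = 7.39e-19) against HUWE1-WT by edgeR's quasi-likelihood test. The level fell by 49.9% against HUWE1-P and fell by 47.1% against HUWE1-WT.

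Of the 4 cytosolic J-domain genes, 2 fell against both controls. DNAJB4 (chromosome 1, 78444859 to 78483648, plus strand), an HSP40 of the same class as DNAJB1, had few counts, at 32.3, 35.9 and 30.8 CPM in the HUWE1-P libraries, 32.5, 29.99 and 35.5 CPM in the HUWE1-WT libraries and 14.8, 19.3 and 18.00 CPM in the HUWE1-CS libraries. These 3 HUWE1-CS libraries were again under every control. The log2 fold change of DNAJB4 was -0.92 (SE 0.188, adjusted p = 6.44e-05) and -0.90 (SE 0.19, adjusted p = 0.00011) against HUWE1-P and HUWE1-WT (edgeR), and its SE is the largest of the called genes among the 47. DNAJB1 (chromosome 19, 14625581 to 14671203, minus strand), the main stress-induced partner of HSP70, was at 269, 260.4 and 283 CPM in the HUWE1-P libraries, 274, 263 and 293 CPM in the HUWE1-WT libraries and 202, 191 and 199 CPM in the HUWE1-CS libraries. Its controls overlapped and its HUWE1-CS libraries did not reach them. In edgeR's test DNAJB1 changed by -0.46 (SE 0.0733, adjusted p = 2.97e-07) and -0.49 (SE 0.0735, adjusted p = 8.4e-08). DNAJA1, a J-domain protein of the other main cytosolic class, lay below all controls in all HUWE1-CS libraries without passing the threshold, at -0.19 (95% interval -0.33 to -0.058, adjusted p = 0.0255) and -0.19 (95% interval -0.32 to -0.053, adjusted p = 0.0321) by edgeR. DNAJB6, which acts against protein aggregation, was at -0.10 (95% interval -0.35 to 0.15, adjusted p = 0.612) against HUWE1-P cells in the same test, with overlapping libraries.

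Among the HSP70 proteins, the stress-inducible pair fell against both controls. HSPA1A (chromosome 6, 31783320 to 31785723, plus strand) was at 571, 490.0 and 535 CPM in the HUWE1-P libraries, 501, 495 and 506 CPM in the HUWE1-WT libraries and 385, 434 and 405 CPM in the HUWE1-CS libraries. HSPA1B (chromosome 6, 31795515 to 31798031, plus strand) was at 742, 639 and 707 CPM in the HUWE1-P libraries, 648, 638 and 683 CPM in the HUWE1-WT libraries and 517, 572 and 541 CPM in the HUWE1-CS libraries. In both genes all 3 HUWE1-CS libraries were below all controls. Their log2 fold changes were -0.38 (SE 0.0647, adjusted p = 1.42e-06) and -0.36 (SE 0.0618, adjusted p = 2.32e-06) against HUWE1-P and -0.29 (SE 0.0651, adjusted p = 0.000261) and -0.27 (SE 0.0621, adjusted p = 0.00039) against HUWE1-WT cells (edgeR). The 2 copies cannot be separated well by short reads, since 75.1% of the stretches of 50 bases in the HSPA1A transcript also occur in HSPA1B. When their counts were summed, an analysis added after the values were seen, the change was -0.37 (SE 0.0575, adjusted p = 1.89e-07) and -0.28 (SE 0.0576, adjusted p = 7.12e-05) by the same test.

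HSPA8 (chromosome 11, 122928197 to 122933938, minus strand), the constitutive HSC70, was at 2797, 2683 and 2692 CPM in the HUWE1-P libraries, 2640, 2716 and 2648 CPM in the HUWE1-WT libraries and 2343, 2340 and 2518 CPM in the HUWE1-CS libraries. The HUWE1-CS libraries lay below the controls by a narrow margin. It passed the threshold against HUWE1-P, at -0.18 (SE 0.0508, adjusted p = 0.00382), and missed it against HUWE1-WT, at -0.15 (SE 0.0509, adjusted p = 0.019) (edgeR). Without HUWE1-P library 1, 2 or 3, or HUWE1-CS library 1 or 2, its adjusted p rose above the threshold, to at most 0.0402. HSPA4, another HSP110 protein, did not pass, with -0.10 (95% interval -0.23 to 0.037, adjusted p = 0.309) and -0.031 (95% interval -0.16 to 0.10, adjusted p = 0.791) by edgeR, and neither did the ribosome-linked HSPA14 at 0.056 (95% interval -0.25 to 0.36, adjusted p = 0.833) and 0.083 (95% interval -0.22 to 0.39, adjusted p = 0.751). The difference between HSPA1A and HSPA8 in size of change was not tested. Reads of HSPA8 can also fit other annotated genes, with 16.8% of its stretches of 50 bases found elsewhere. The share was 19.1% for HSP90AA1, 19.7% for HSP90AB1, 18.6% for PDIA3 and 25.3% for DNAJB11, while HSPH1, DNAJB4, BAG3, CCT7 and P4HB shared 0%.

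**Figure D1:**
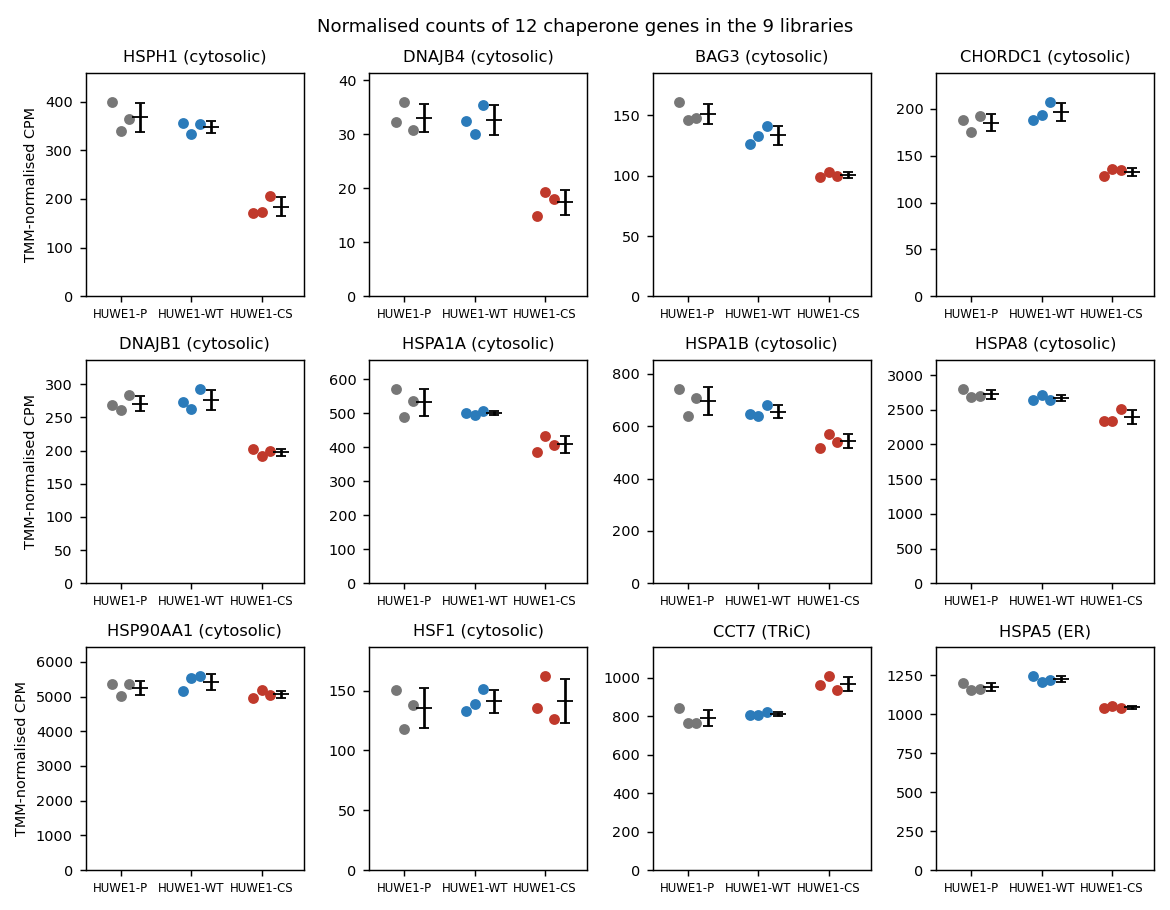
TMM-normalised CPM (vertical axes, each from 0) of 12 chaperone genes in the 9 libraries, with a point for each library, and the mean and SD of the 3 libraries of a line beside them. In HSPH1, DNAJB4, BAG3, CHORDC1, DNAJB1, HSPA1A, HSPA1B, HSPA8 and HSPA5 the HUWE1-CS points lie below all control points, in CCT7 above them, and in HSF1 they overlap.

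BAG3 (chromosome 10, 121410892 to 121437331, plus strand), which couples HSP70 to selective autophagy, was at 161, 146 and 147 CPM in the HUWE1-P libraries, 126, 133 and 141 CPM in the HUWE1-WT libraries and 98.5, 103 and 99.9 CPM in the HUWE1-CS libraries. Here the control lines did not overlap either, with every HUWE1-WT library below every HUWE1-P library and every HUWE1-CS library lower still. BAG3 changed by -0.59 (SE 0.0913, adjusted p = 1.65e-07) against HUWE1-P and -0.41 (SE 0.0937, adjusted p = 0.000423) against HUWE1-WT in edgeR's test, while HUWE1-WT against HUWE1-P gave -0.18 (SE 0.0864, adjusted p = 0.88), short of the threshold.

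Neither cytosolic HSP90 gene passed the test. HSP90AA1, the inducible cytosolic HSP90, was at 5348, 5017 and 5368 CPM in the HUWE1-P libraries, 5148, 5521 and 5591 CPM in the HUWE1-WT libraries and 4965, 5182 and 5037 CPM in the HUWE1-CS libraries. These values overlap between the lines, and the log2 fold changes were -0.051 (95% interval -0.15 to 0.045, adjusted p = 0.477) and -0.10 (95% interval -0.19 to -0.0027, adjusted p = 0.131) by edgeR. HSP90AB1, the constitutive form, was at 4439, 4200 and 4436 CPM in the HUWE1-P libraries, 4230, 4267 and 4388 CPM in the HUWE1-WT libraries and 3960, 3865 and 4035 CPM in the HUWE1-CS libraries. Its HUWE1-CS libraries were below all controls, yet its changes of -0.14 (95% interval -0.24 to -0.044, adjusted p = 0.0224) and -0.12 (95% interval -0.22 to -0.023, adjusted p = 0.0606) did not pass edgeR's test. Of the 20 alternative settings, HSP90AB1 was called lower in 4 against HUWE1-P and in 3 against HUWE1-WT, and HSP90AA1 in 0 of both.

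Of the 6 HSP90 cochaperones among the members, 4 fell against both controls. CHORDC1 was at 188, 175 and 193 CPM in the HUWE1-P libraries, 188, 194 and 207 CPM in the HUWE1-WT libraries and 128, 136 and 135 CPM in the HUWE1-CS libraries, with all HUWE1-CS libraries below the controls. It changed by -0.48 (SE 0.0827, adjusted p = 2.05e-06) and -0.56 (SE 0.0824, adjusted p = 3.9e-08) by edgeR. PTGES3 (p23), which holds HSP90 in its closed state, changed by -0.32 (SE 0.0719, adjusted p = 0.000248) and -0.25 (SE 0.0726, adjusted p = 0.00704) in the same test. STIP1 (HOP), the adaptor between HSP70 and HSP90, changed by -0.23 (SE 0.0604, adjusted p = 0.00252) and -0.23 (SE 0.0605, adjusted p = 0.00263), and CACYBP, whose product carries a domain like that of p23, by -0.26 (SE 0.0765, adjusted p = 0.00729) and -0.34 (SE 0.0763, adjusted p = 0.000363) (edgeR). All 3 had HUWE1-CS libraries below every control. AHSA1, the activator of the HSP90 ATPase, and the immunophilin FKBP4 did not pass edgeR's test, at -0.070 (95% interval -0.22 to 0.076, adjusted p = 0.53) and -0.0048 (95% interval -0.13 to 0.12, adjusted p = 0.969) against HUWE1-P cells.

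Single libraries decided several of these smaller calls. Against HUWE1-P, PTGES3 lost its call without HUWE1-P library 1 (adjusted p = 0.0116), STIP1 without HUWE1-P library 1 or HUWE1-CS library 2 (at most 0.0328), and CACYBP without HUWE1-P library 1, 2 or 3 or HUWE1-CS library 2 or 3 and in DESeq2 (at most 0.0495). Against HUWE1-WT, STIP1 lost it without HUWE1-WT library 2 or 3 or HUWE1-CS library 2 (at most 0.026), and PTGES3 without HUWE1-WT library 2 or 3, without any 1 of the HUWE1-CS libraries, in DESeq2 and in a fit of only the 2 lines compared (at most 0.0533). HSPA1A, HSPA1B, HSPH1, DNAJB1, DNAJB4, BAG3 and CHORDC1 were called in all 20 alternative settings in both comparisons.

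HSPB1, the small heat shock protein HSP27, was at 517, 553 and 523 CPM in the HUWE1-P libraries, 579, 622 and 559 CPM in the HUWE1-WT libraries and 456, 563 and 454 CPM in the HUWE1-CS libraries. The second HUWE1-CS library lay inside the range of the controls and the other two below it. It missed the threshold against HUWE1-P at -0.11 (SE 0.0659, adjusted p = 0.211) and passed against HUWE1-WT at -0.26 (SE 0.0655, adjusted p = 0.00157) (edgeR), and this call was lost without HUWE1-WT library 2 or HUWE1-CS library 1 or 3 and in DESeq2 (adjusted p at most 0.0417). With the length trend removed HSPB1 was at -0.32 against HUWE1-P (adjusted p = 3.32e-06 in edgeR), past the threshold, and at -0.44 against HUWE1-WT (adjusted p = 4.54e-10).

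The transcript of HSF1 itself was at 151, 118 and 138 CPM in the HUWE1-P libraries, 133, 139 and 152 CPM in the HUWE1-WT libraries and 136, 162 and 127 CPM in the HUWE1-CS libraries. The libraries of the 3 lines overlapped, and edgeR gave 0.065 (95% interval -0.12 to 0.25, adjusted p = 0.654) and 0.0058 (95% interval -0.18 to 0.19, adjusted p = 0.975). Its activity cannot be read from its transcript level.

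**Figure D2:**
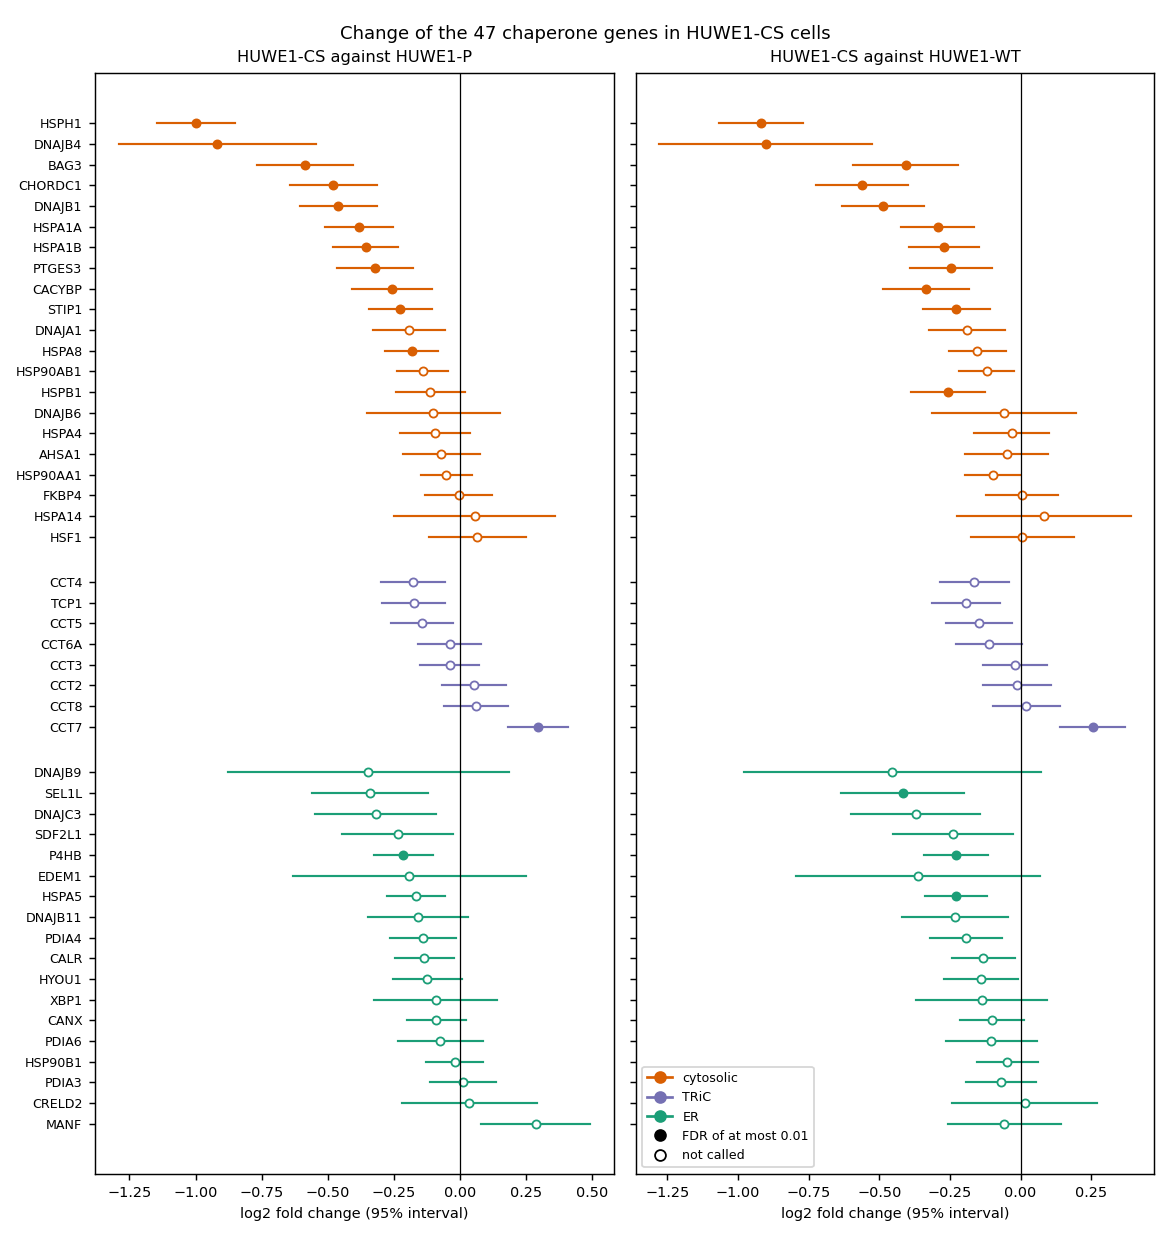
Log2 fold change of each of the 47 genes in HUWE1-CS against HUWE1-P cells (left) and against HUWE1-WT cells (right), with its 95% interval from edgeR's quasi-likelihood fit, grouped as cytosolic, TRiC and ER and sorted within a group by the left panel. Filled points have an FDR of at most 0.01: 11 cytosolic genes to the left of 0 in each panel, CCT7 to the right in both, and P4HB, joined by HSPA5 and SEL1L in the right panel, to the left among ER genes.

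Among the TRiC subunits 1 gene passed the test. Of the 8 genes 1 rose against HUWE1-P and 0 fell, where 8.46% of all genes rose, and the median log2 fold change was -0.039. Against HUWE1-WT again 1 rose and 0 fell, beside 7.42% of all genes that rose, with a median of -0.065. In each comparison 4 of the 8 had an unadjusted p under 0.05 in edgeR, beside 36.1% and 35.0% of all genes against HUWE1-P and HUWE1-WT. Over all genes 6.01% rose against both. The gene that did so here was CCT7 (chromosome 2, 73460548 to 73480149, plus strand), at 840.4, 766 and 765 CPM in the HUWE1-P libraries, 805, 805 and 822 CPM in the HUWE1-WT libraries and 963, 1008 and 934 CPM in the HUWE1-CS libraries. Its HUWE1-CS libraries lay above every control, and CCT7 was the only one of the 47 genes of which this was so, beside 12.9% of all genes. The changes were 0.29 (SE 0.0577, adjusted p = 2.8e-05) and 0.26 (SE 0.0577, adjusted p = 0.000319) by edgeR, an increase of 22.6% and 19.4%, and CCT7 was called in all 20 alternative settings.

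TCP1 (CCT1), CCT4 and CCT5 stood at the other end, at -0.18, -0.18 and -0.14 against HUWE1-P and -0.19, -0.16 and -0.15 against HUWE1-WT, short of the threshold in edgeR's test (adjusted p between 0.0113 and 0.0633). Of the 20 alternative settings, TCP1 was called lower in 4 against HUWE1-P and in 8 against HUWE1-WT. CCT4 and CCT5 had all HUWE1-CS libraries below all controls, and TCP1 did not. CCT2, CCT3, CCT6A and CCT8 lay between -0.11 and 0.061 in both comparisons. Subunits of the ring are used in equal number, so their levels were set side by side per kilobase (kb) of transcript. In HUWE1-P cells these levels ran from 228 CPM per kb in CCT5 to 537 CPM per kb in CCT3. CCT7 went from 428 CPM per kb in HUWE1-P and 439 CPM per kb in HUWE1-WT to 524 CPM per kb in HUWE1-CS cells, where CCT3 was at 522 CPM per kb.

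Among ER folding genes few passed the test. Of the 18 genes 1 fell against HUWE1-P and 0 rose, with a median of -0.14, and 3 fell against HUWE1-WT and 0 rose, with a median of -0.17, where 8.58% and 8.08% of all genes fell. An unadjusted p under 0.05 was reached by 8 and 9 of the 18 in edgeR, beside 36.1% and 35.0% of all genes. In 10 of the 18 all HUWE1-CS libraries lay below all controls, beside 13.4% of all genes.

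P4HB (chromosome 17, 79801035 to 79818732, minus strand), protein disulfide isomerase, was at 1171, 1126 and 1136 CPM in the HUWE1-P libraries, 1174, 1064 and 1226 CPM in the HUWE1-WT libraries and 983, 990.2 and 984 CPM in the HUWE1-CS libraries. The 3 HUWE1-CS values were close together and under all controls, of which the second HUWE1-WT library came nearest. P4HB fell against both, at -0.21 (SE 0.0566, adjusted p = 0.0021) and -0.23 (SE 0.0566, adjusted p = 0.00114) in edgeR's test. It lost the call against HUWE1-P without HUWE1-P library 1 or HUWE1-CS library 3 (adjusted p at most 0.0221), and against HUWE1-WT without HUWE1-WT library 3 (0.0347).

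HSPA5 (chromosome 9, 127997132 to 128003661, minus strand), the ER HSP70 and central regulator of the unfolded protein response, was at 1202, 1156 and 1165 CPM in the HUWE1-P libraries, 1246, 1211 and 1218 CPM in the HUWE1-WT libraries and 1041, 1056 and 1038 CPM in the HUWE1-CS libraries. Its HUWE1-CS libraries were below all controls, and the HUWE1-WT libraries above all HUWE1-P libraries. It passed against HUWE1-WT, at -0.23 (SE 0.0549, adjusted p = 0.000764), and not against HUWE1-P, at -0.17 (SE 0.055, adjusted p = 0.0156) (edgeR). SEL1L, the scaffold of the HRD1 ligase in ER-associated degradation, passed only against HUWE1-WT, at -0.42 (SE 0.11, adjusted p = 0.00231) beside -0.34 (SE 0.11, adjusted p = 0.0139) against HUWE1-P by edgeR. The call of SEL1L was lost without HUWE1-WT library 2 or 3 or HUWE1-CS library 2, in DESeq2, and with a trend in transcript length removed (adjusted p at most 0.0335).

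HSP90B1, the ER HSP90, was at 1270, 1248 and 1299 CPM in the HUWE1-P libraries, 1292, 1301 and 1297 CPM in the HUWE1-WT libraries and 1241, 1306 and 1219 CPM in the HUWE1-CS libraries, with lines that overlap. EdgeR gave -0.019 (95% interval -0.13 to 0.088, adjusted p = 0.837) and -0.046 (95% interval -0.15 to 0.062, adjusted p = 0.588). XBP1 was at 67.04, 69.6 and 74.2 CPM in the HUWE1-P libraries, 75.3, 69.3 and 73.8 CPM in the HUWE1-WT libraries and 66.5, 62.95 and 69.1 CPM in the HUWE1-CS libraries. The HUWE1-CS libraries of XBP1 were not separated from the controls, with -0.092 (95% interval -0.32 to 0.14, adjusted p = 0.613) and -0.14 (95% interval -0.37 to 0.094, adjusted p = 0.43) in the same test. Counts per gene do not show the splicing by which XBP1 is activated.

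Of the other ER genes, the J-domain proteins DNAJB9, DNAJB11 and DNAJC3 and the DNAJB11 partner SDF2L1 lay between -0.35 and -0.16 against HUWE1-P. None of these passed edgeR's test, where DNAJC3 came nearest (adjusted p = 0.0288 and 0.0103), and all 4 had their HUWE1-CS libraries below all controls. DNAJB9 had few counts, at 13.03, 15.7 and 12.1 CPM in the HUWE1-P libraries, 16.2, 13.6 and 13.95 CPM in the HUWE1-WT libraries and 8.90, 11.9 and 11.03 CPM in the HUWE1-CS libraries, and its interval from -0.88 to 0.18 is wide. The isomerases PDIA3, PDIA4 and PDIA6 were at 0.010, -0.14 and -0.074, and the lectin chaperones CALR and CANX at -0.14 and -0.090. HYOU1, the exchange factor of HSPA5, was at -0.12, and EDEM1, which marks glycoproteins for degradation, at -0.19. CRELD2 was at 0.036. Against HUWE1-WT, PDIA3, PDIA4 and PDIA6 were at -0.069, -0.19 and -0.10, and CALR and CANX at -0.13 and -0.10. HYOU1, EDEM1 and CRELD2 were at -0.14, -0.36 and 0.015. None of these genes passed edgeR's test in either comparison, where PDIA4 came nearest (adjusted p = 0.0172 against HUWE1-WT). In PDIA4, CALR and HYOU1 all HUWE1-CS libraries lay below all controls, and in the others they did not.

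MANF, a secreted protein induced by ER stress, followed another pattern, at 80.1, 84.2 and 79.5 CPM in the HUWE1-P libraries, 103, 109 and 96.5 CPM in the HUWE1-WT libraries and 90.2, 102 and 105 CPM in the HUWE1-CS libraries. Both edited lines lay above all HUWE1-P libraries and overlapped each other. Its differences were 0.29 (SE 0.104, adjusted p = 0.0315) in HUWE1-CS against HUWE1-P, -0.057 (SE 0.1, adjusted p = 0.734) in HUWE1-CS against HUWE1-WT and 0.34 (SE 0.103, adjusted p = 0.361) in HUWE1-WT against HUWE1-P cells, and none passed edgeR's test.

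Over all 47 genes, 13 were called against HUWE1-P (27.7%), 1 higher and 12 lower, beside 17.0% of all 11350 genes. Against HUWE1-WT 15 were called (31.9%), 1 higher and 14 lower, beside 15.5% of all genes. The medians of all 47 were -0.14 and -0.15. Since the 47 were chosen with earlier results of these data known, these shares are a description and no test of enrichment. Summed CPM put the 3 groups in 1 unit per library. The 21 cytosolic genes together were at 18656, 17472 and 18241 CPM in HUWE1-P, 17611, 18230 and 18491 CPM in HUWE1-WT and 16052, 16269 and 16402 CPM in HUWE1-CS libraries. HUWE1-CS was below both controls without overlap, and HSP90AA1, HSP90AB1 and HSPA8 carry most of this sum. The ER sum was 7998 ± 88.4 CPM, 8187 ± 128 CPM and 7396 ± 61 CPM in HUWE1-P, HUWE1-WT and HUWE1-CS (SD, n = 3), again without overlap. The TRiC sum of 5898 ± 159 CPM, 5987 ± 166 CPM and 5836 ± 176 CPM (SD, n = 3) overlapped between the lines.

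**Figure D3:**
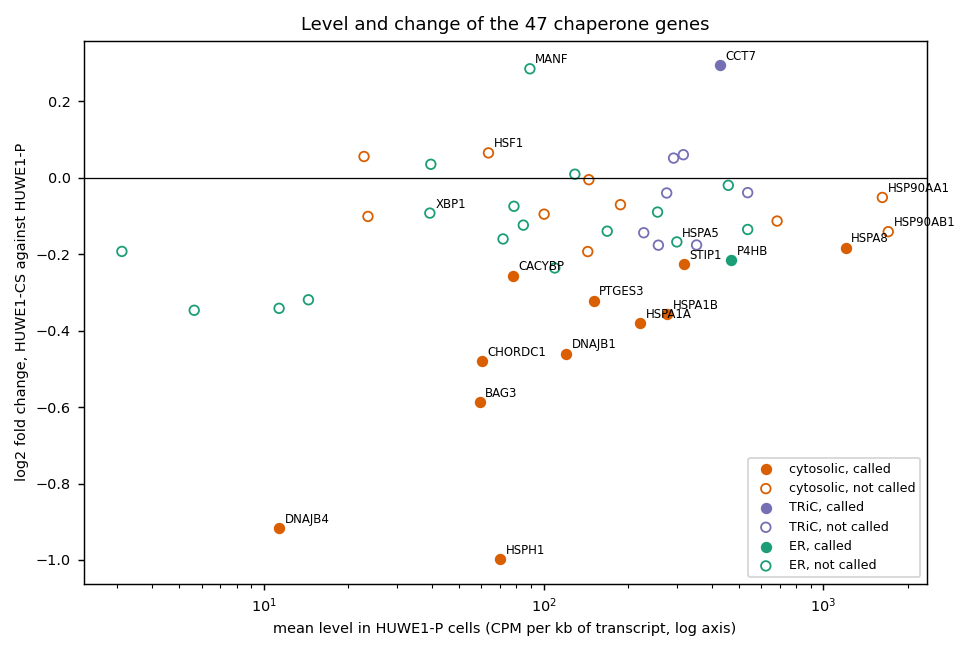
Mean level of the 47 genes in HUWE1-P cells, in CPM per kb of transcript on a log axis, plotted with the log2 fold change from HUWE1-P to HUWE1-CS cells, where filled points mark called genes. HSPH1 and DNAJB4 lie lowest, CCT7 and MANF highest, and the most abundant genes at the right, HSP90AA1, HSP90AB1 and HSPA8, lie at -0.051, -0.14 and -0.18, of which HSPA8 was called.

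Per kb of transcript, the levels of the members in HUWE1-P cells spanned from 3.11 CPM per kb in EDEM1 to 1706 CPM per kb in HSP90AB1. The next highest were HSP90AA1 at 1625 CPM per kb, HSPA8 at 1203 CPM per kb and HSPB1 at 684 CPM per kb, and the next lowest DNAJB9 at 5.65 CPM per kb. HSPA8 stood at 1060 CPM per kb in HUWE1-CS cells beside 170.1 and 216 CPM per kb for HSPA1A and HSPA1B. HSPH1 went from 70.1 to 35.1 CPM per kb, and its paralogue HSPA4, the higher of the pair in both lines, from 101 to 94.1 CPM per kb.

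Comparison of HUWE1-WT with HUWE1-P cells called 0 of the 47 genes, beside 0.0617% of all genes (0.00881% higher and 0.0529% lower in HUWE1-WT). In edgeR 3 of the 47 had an unadjusted p under 0.05, beside 5.54% of all genes: MANF (0.34), HSPB1 (0.14) and BAG3 (-0.18). DESeq2 called 0, with 1 unadjusted p under 0.05, and limma-voom called 0. The medians were -0.021 in cytosolic, 0.028 in TRiC and 0.049 in ER genes, on the log2 scale.

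Transcript length moved with these comparisons. Over 10832 genes with a length, the Spearman correlation of length with the log2 fold change was -0.261 in HUWE1-CS against HUWE1-P and -0.198 in HUWE1-CS against HUWE1-WT cells, and -0.154 in HUWE1-WT against HUWE1-P cells, given as a description across genes of the same libraries. The median length was 2489 bases in the cytosolic, 2164.5 bases in the TRiC and 2602 bases in the ER members. With this trend removed within each library, the members called rose from 13 to 20 against HUWE1-P and from 15 to 22 against HUWE1-WT, while those of all genes went from 1934 to 1885 and from 1759 to 1771. Of the first 13 all remained, and HSP90AB1, HSPB1, DNAJA1, TCP1, CCT4, SDF2L1 and CALR were added.

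Heat shock and ER stress elements were unevenly spread over the groups. Windows were found for 42 of the 47 genes, not for HSPA14, FKBP4, HSF1, CCT6A and PDIA3, and for 9041 of the 11350 genes of the table. GAANNTTC or TTCNNGAA, searched on both strands, occurred in 12 of 18 cytosolic, 3 of 7 TRiC and 1 of 17 ER genes, beside 13.3% of the 9041. The array of 3 units, GAANNTTC followed by any 2 bases and GAA or its reverse complement, which contains both shorter forms, occurred in 6 of 18 cytosolic and in 0 TRiC and 0 ER genes, beside 0.476%. The ER stress element occurred in 7 of 17 ER genes (HSPA5, HSP90B1, PDIA6, CALR, CANX, CRELD2 and XBP1) and in 0 genes of both other groups, beside 0.155%. The core recognised by XBP1, TGACG directly followed by TGG, occurred among the members in HYOU1 only, beside 1.29%.

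Within the cytosolic group the counts of genes that fell are given by element, as a description with no test. A gene without an element is one with no exact match in its windows, and imperfect or more distant elements were not searched. Over all genes 6.22% fell against both controls. The share that fell among all genes with an element was not computed, so these counts give no result about the elements. Of 12 genes with a 2-unit element, 6 fell against both controls, with a median log2 fold change of -0.21 against HUWE1-P. Of the 6 without one (HSPA4, HSPH1, BAG3, AHSA1, CACYBP and PTGES3), 4 fell against both, with a median of -0.29. Of 6 genes with the 3-unit array, CHORDC1 alone fell against both, while HSPA8, HSP90AA1, HSP90AB1, DNAJA1 and DNAJB6 were not called in at least 1 comparison. Of the 12 without the array, 9 fell against both. The median log2 fold change was -0.16 with the array and -0.34 without it against HUWE1-P, and -0.14 and -0.28 against HUWE1-WT. In the ER group HSPA5, shown above with 1 exact match, passed against HUWE1-WT only, and HSP90B1, which also holds the element, in neither comparison. A match in a window is a description of its letters and not a measurement of binding.

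Genes that work beside the members were read from 4 further lists. Their counts stand beside 8.46% of all genes that rose and 8.58% that fell against HUWE1-P, and 7.42% and 8.08% against HUWE1-WT. The first list holds other cochaperones and HSP70 relatives, most of them cytosolic, and also the ER-linked HSPA13 and the transcription factor HSF2. Of its 41 genes in the table, 4 rose and 4 fell against HUWE1-P, HSPA13 among them, with a median of 0.037, and 1 rose and 2 fell against HUWE1-WT, HSPA13 again among them. Against HUWE1-P, HSBP1, a small binding partner of HSF1, rose, at 0.28 (SE 0.0734, adjusted p = 0.00166), and FKBP5, an HSP90-bound immunophilin, fell, at -0.40 (SE 0.0852, adjusted p = 0.000114) by edgeR. Neither passed against HUWE1-WT, where HSBP1 was at 0.22 (SE 0.0733, adjusted p = 0.0177) and FKBP5 at -0.17 (SE 0.0879, adjusted p = 0.167). Between the controls FKBP5 was at -0.24 (SE 0.0832, adjusted p = 0.631) in HUWE1-WT against HUWE1-P. Against HUWE1-WT the leading genes of this list were UNC45A, a myosin chaperone, at 0.38 (SE 0.0899, adjusted p = 0.000699) and BAG2, another exchange factor of HSP70, at -0.59 (SE 0.118, adjusted p = 4.9e-05). HSPA6 and CRYAB, which are strongly stress-induced, were not listed in the table.

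The second list covers partners of TRiC, namely prefoldin, which hands nascent actin and tubulin to it, the tubulin cofactors, which act on tubulin after it, and PDCL, PDCL3, PDCD5, URI1 and UXT. Of its 16 genes 3 rose and 1 fell against HUWE1-P and 1 rose and 0 fell against HUWE1-WT. The prefoldin subunit PFDN5 rose in both, at 0.65 (SE 0.0958, adjusted p = 3.14e-08) and 0.65 (SE 0.0964, adjusted p = 4.14e-08) (edgeR), and the cofactor TBCE fell against HUWE1-P, at -0.71 (SE 0.207, adjusted p = 0.00572), and did not pass against HUWE1-WT, at -0.44 (SE 0.217, adjusted p = 0.139).

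Of 37 sensors, factors and degradation genes of the unfolded protein response, 2 rose and 2 fell against HUWE1-P, with a median of 0.032, and 1 rose and 2 fell against HUWE1-WT. ATF4, the transcription factor made when translation is slowed by stress, rose, at 0.32 (SE 0.0629, adjusted p = 3.51e-05) and 0.28 (SE 0.0629, adjusted p = 0.000298) against HUWE1-P and HUWE1-WT, and CREB3L2, an ER-bound transcription factor, fell, at -0.67 (SE 0.139, adjusted p = 7.36e-05) and -0.78 (SE 0.138, adjusted p = 4.26e-06) (edgeR). Of 51 other ER folding and translocation genes 9 rose and 7 fell against HUWE1-P, with a median of -0.0056, and 6 rose and 8 fell against HUWE1-WT. PRKCSH, the beta subunit of glucosidase II, had the smallest p-value of those that rose, at 0.53 (SE 0.0674, adjusted p = 4.41e-10), and the isomerase TXNDC5 those that fell, at -0.42 (SE 0.0666, adjusted p = 2.02e-07), in edgeR's test.

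**Figure D4:**
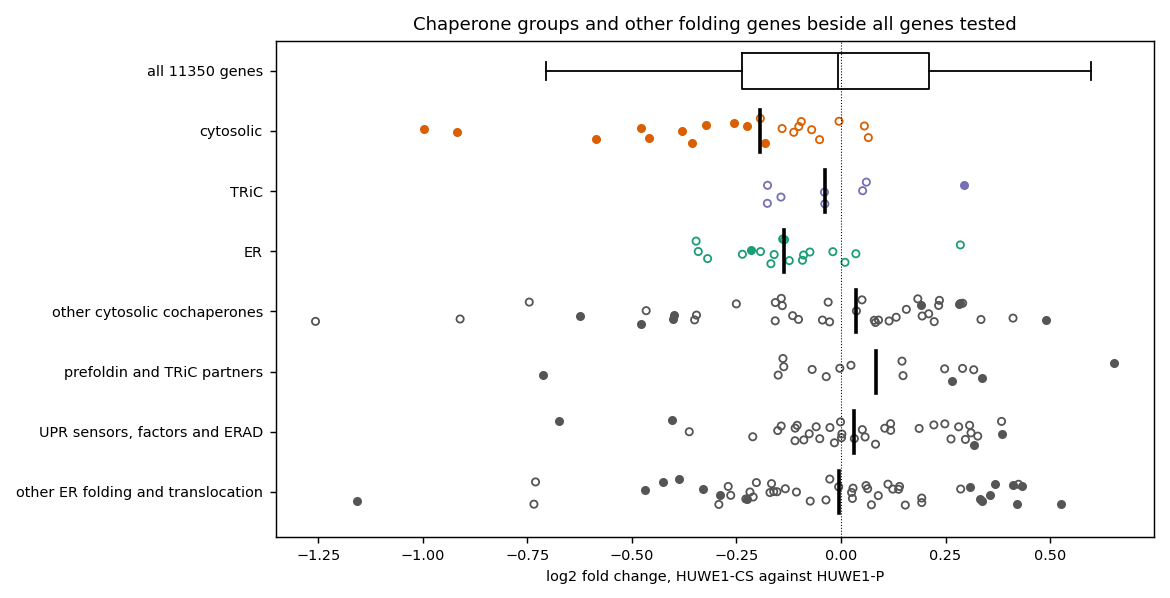
Log2 fold change, HUWE1-CS against HUWE1-P, of the 3 chaperone groups and the 4 lists of other folding genes, with a point for each gene (filled where the FDR is at most 0.01) and a bar at the median. The box at the top spans the quartiles of all 11350 genes with whiskers from the 5th to the 95th percentile. The cytosolic group has 11 filled points, all below 0, and the other lists have filled points on both sides, except TRiC (above 0) and ER (below 0) with 1 each.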

How the data were processed

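The 47 members and the gene lists were chosen with earlier results of these data known. Poly(A) RNA of the 9 libraries was sequenced by the authors, who per the labels used bcl2fastq 2.20, STAR 2.5.4 on hg19 and edgeR 3.26.8, and deposited raw counts per gene without normalisation. The counting tool, annotation and use of strand are not given in the sources used here, so overlapping and antisense genes cannot be told apart. The deposited tables of the authors' own comparisons (log2 fold change, mean log2 CPM, F, p-value, FDR) were not used. No gene was removed (smallest total over libraries 41). The 147 genes without a symbol, with 0.505% of the counts, were kept under their Entrez identifiers.

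Counts were normalised by TMM and all 9 libraries were fitted together in edgeR 4.0.16 (R 4.3.3; glmQLFit and glmQLFTest, legacy = TRUE) with the line as the only term. The biological coefficient of variation was 4.77%. The quasi-likelihood fit had 89.5 prior degrees of freedom, so the SE and p-value of a gene rest largely on the trend over all genes. SE is the absolute log2 fold change divided by the square root of F. Replicates differed beyond sampling noise in all pairs (chi-square per degree of freedom between 1.16 and 1.65). Intervals and floors of 3 counts cover no variation between clones, and floors cover counting error only. Levels per kb use the Ensembl canonical transcript of the GENCODE annotation on GRCh37. Shared sequence was the share of 50-base stretches of a transcript found in another annotated gene. The scripts were tested on simulated counts. Alternatives were DESeq2 1.42.0, limma-voom (limma 3.58.1), the newer edgeR estimator, a robust fit, RLE factors, total counts, 2 filters on low counts, only 2 lines in a fit, the replicate number as a block, removal of a length trend, an FDR of 0.05, and omission of each library. Values in every library are given for the leading called members of each group (the 3 smallest p-values per direction), for members called in both comparisons with a log2 fold change of at least 0.5 in size, and for HSPA1A, HSPA1B, HSPA8, HSP90AA1, HSP90AB1, HSPA5, HSP90B1, HSF1 and XBP1. CHORDC1, HSPB1, MANF and DNAJB9 were added to these after their values were seen. A comparison of protein ends was not made here.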

Additional observations from a re-analysis of the deposited data

How the results depend on the processing

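The 20 alternatives and the summed HSPA1A and HSPA1B left 880 of 941 log2 fold changes of single genes against HUWE1-P, and 871 of 941 against HUWE1-WT, with the same direction and the same side of the threshold. Members called numbered 13 against HUWE1-P; they were 20 with the length trend removed, 21 at an FDR of 0.05, 12 in DESeq2, 15 in limma-voom and 19 with total counts (beside 1934 of all genes, and 1885, 2999, 1088, 1872 and 1943 in the same order), and from 9 to 14 when a library was left out (9 without HUWE1-P library 1). Against HUWE1-WT the 15 became 12 in DESeq2, 18 in limma-voom, 20 with total counts and 22 with the length trend removed (beside 1759 of all genes, and 998, 1689, 1795 and 1771), and from 11 to 16 when a library was left out. Comparing both controls, 0 of the 47 were called under each alternative. The cytosolic median against HUWE1-P was -0.27 with the length trend removed and from -0.16 to -0.23 when a library was left out; against HUWE1-WT it was -0.25 with total counts and from -0.19 to -0.26 when a library was left out. The ER median against HUWE1-WT was -0.19 with total counts and -0.19 with the length trend removed. The cause was not tested.

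Direction reversed only in genes that were not called. Against HUWE1-P, removal of the length trend gave HSPA14 -0.016, FKBP4 0.027, CCT2 -0.0071, CCT8 -0.0031 and CRELD2 -0.069, total counts gave PDIA3 -0.014, and FKBP4 was 0.0018 in DESeq2, 0.0017 in limma-voom, 0.0022 with RLE factors and 0.0014 with only 2 lines. Against HUWE1-WT, removal of the length trend gave HSPA4 0.018, HSF1 -0.018, CCT8 -0.020 and CRELD2 -0.064, and total counts gave FKBP4 -0.021, HSF1 -0.021, CCT8 -0.0062 and CRELD2 -0.012. With a library left out, the ranges against HUWE1-P that crossed 0 were HSPA14 -0.056 to 0.15, FKBP4 -0.063 to 0.070, HSF1 -0.037 to 0.15, HSP90B1 -0.041 to 0.0099, PDIA3 -0.015 to 0.034, PDIA6 -0.13 to 0.018 and CRELD2 -0.081 to 0.12. Against HUWE1-WT they were HSPA4 -0.072 to 0.035, HSPA14 -0.074 to 0.23, DNAJB6 -0.14 to 0.019, FKBP4 -0.032 to 0.038, HSF1 -0.098 to 0.088, CCT2 -0.030 to 0.010, CCT3 -0.051 to 0.020, CCT8 -0.0096 to 0.049, CRELD2 -0.10 to 0.10 and MANF -0.10 to 0.0040.

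Deviations of libraries of the same replicate number in different lines correlated weakly, between -0.031 and 0.0726. Those of different numbers correlated between -0.0706 and 0.0332, and the highest value was that of HUWE1-P and HUWE1-CS library 2. Correlations of this size do not settle whether the numbers pair the libraries. With the replicate number as a block, 15, 18 and 0 members were called against HUWE1-P, against HUWE1-WT and between the controls. In the same order 2021, 1835 and 7 of all genes were called. Not every library correlated best with the others of its number. Depth limits the genes of few counts, such as DNAJB9, whose SE of 0.267 is near the size of its log2 fold change of -0.35 against HUWE1-P.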

Other observations

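Further genes of ER complexes passed the threshold in both directions. They were picked from the lists of other folding genes after their values were seen, and give no test of the complexes. Both subunits of glucosidase II, which trims glycans before the calnexin cycle, rose: PRKCSH by 0.53 and GANAB by 0.37 on the log2 scale against HUWE1-P, and by 0.57 and 0.28 against HUWE1-WT (edgeR, adjusted p at most 0.000142). The signal peptidase subunits SPCS1 and SPCS3 were at 0.43 and -0.47 against HUWE1-P, both past the threshold, and at 0.22 and -0.44 against HUWE1-WT, where only SPCS3 passed. SRP14 and SRP72 of the signal recognition particle were at 0.31 and -0.29 against HUWE1-P, both past the threshold, and at 0.25 and -0.20 against HUWE1-WT, where neither passed. SSR2 of the translocon-associated complex fell, at -0.39 and -0.51, while SSR4 was at 0.42, past the threshold, and 0.25, short of it. SSR1 passed against HUWE1-WT only, at -0.37 (adjusted p = 0.000138) beside -0.22 (adjusted p = 0.0344) against HUWE1-P (edgeR). The other listed subunits of these last complexes, SSR3, SPCS2, SEC11A, SEC11C, SRP9, SRP19, SRP54 and SRP68, passed in neither comparison. The collagen chaperone SERPINH1, also a target of the heat shock response, fell, at -0.33 and -0.31, and HSPA13, an ER-linked HSP70, with -0.62 (SE 0.137, adjusted p = 0.000193) and -0.65 (SE 0.137, adjusted p = 0.00012). Whether any pair differs in its change was not tested.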
